A study of Mus musculus with 2 samples.

Results

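The genes described here encode the protein-folding, translocation and quality-control machinery of the endoplasmic reticulum (ER), together with the sensors of the unfolded protein response. They were a named set of 52 mouse genes, matched by symbol to Ensembl identifiers, and all 52 were found among the 38087 identifiers of each deposited table. The series measured RNA of sorted parietal cells, which secrete gastric acid, from the stomach of C57BL/6 mice on a high fat diet (HFD) and of control mice of the same strain. There was 1 library per diet, HFD-PC and Control-PC; the sources used here do not give the age and number of the mice, the make-up of either diet or the markers of the sort. For this reason nothing was tested between diets, and each comparison below is between these 2 libraries.

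Proteins bound for secretion, for the cell surface or for the membranes of the secretory pathway enter the ER through the SEC61 channel, are glycosylated by the oligosaccharyltransferase, and are folded by HSP70- and HSP90-type chaperones, lectin chaperones and protein disulfide isomerases. Proteins that fail to fold are carried back to the cytosol and destroyed, a route called ER-associated degradation. When unfolded proteins build up, the sensors IRE1, ATF6 and PERK raise the transcription of chaperone and degradation genes, in large part through the factors XBP1 and ATF6 and short promoter elements named ER stress response elements (ERSE). In the gastric glands this machinery is prominent in the zymogen-secreting chief cells and the mucus-secreting cells, while parietal cells must fold the proton pump, whose beta subunit is heavily glycosylated.

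Levels are given in RPKM, reads per kilobase of gene scaled to the library's total reads, as recovered from the deposited log2 values; a gene at or below 1 RPKM is listed as 0. The ratio of a gene is its RPKM in the HFD library over that in the control library, without a pseudocount, and exists only for genes listed in both. Its interval is an approximate 95% interval from estimated reads and covers counting error only, not variation between mice. The depth estimated from the spacing of low values was 25.49 M reads for HFD and 9.84 M reads for control, so that a gene of 2 kb at 1 RPKM rested on about 51.0 and 19.7 reads. In both libraries 51 of the 52 genes were listed, and Sec61g in the HFD library alone. Of the 51 genes 47 stood at 5 RPKM or more in both libraries.

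Of the ER genes, 34 of 51 were lower with HFD; by group, the HSP70, HSP90 and cofactor genes had the lowest median ratio, while the medians of the sensors and degradation genes were close to that of protein-coding genes. The median log2 ratio of the 51 genes was -0.22, beside -0.04 over the 9997 protein-coding genes listed in both libraries and -0.02 over all 12439 genes listed in both. The lower genes made up 66.7% and 17 genes were higher, where 52.2% of the protein-coding genes were lower and 47.8% higher. Over 2-fold lower were 8 genes (15.7%), namely Sdf2l1, Creld2, Pdia6, Ero1lb, Atf6b, Os9, Selenok and Ssr2, beside 12.5% of protein-coding genes and 13.1% of all genes. Only Dnajb9 was over 2-fold higher (1.96% of the 51), beside 7.00% of protein-coding genes and 10.6% of all genes. The share over 2-fold lower was thus near the background, whereas the share lower by any amount was above it. Past 1.5-fold, 20 genes (39.2%) were lower and 4 (7.84%) were higher, beside 24.4% and 18.7% of protein-coding genes. By its whole counting interval, Dnajb9 stayed past 2-fold (4.08% of protein-coding genes did so on the higher side), as did 5 genes on the lower side (8.73%), Sdf2l1, Creld2, Pdia6, Ero1lb and Selenok. Among genes at 5 RPKM or more in both libraries, 5 of the 47 ER genes were over 2-fold lower, beside 6.46% of protein-coding genes, and 1 was over 2-fold higher, beside 4.69%. In such bulk libraries, fewer cells of a type and less RNA per cell cannot be told apart.

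The size of these medians, and the direction of some single genes, depend on how the libraries are scaled. Directions of single genes given below are those of the values as deposited unless a scaling is named. Scaled to the total of protein-coding genes, the median protein-coding gene moved to a log2 ratio of 0.25 and that of the ER genes to 0.07, with 25 of 51 lower. With the 20 most abundant genes of either library left out of the scaling total, they moved to -0.61 and -0.80, with 47 of 51 lower. Under every scaling the ER genes kept the same distance, -0.19, below the median protein-coding gene, since a scaling shifts all genes alike.

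**Figure D1:**
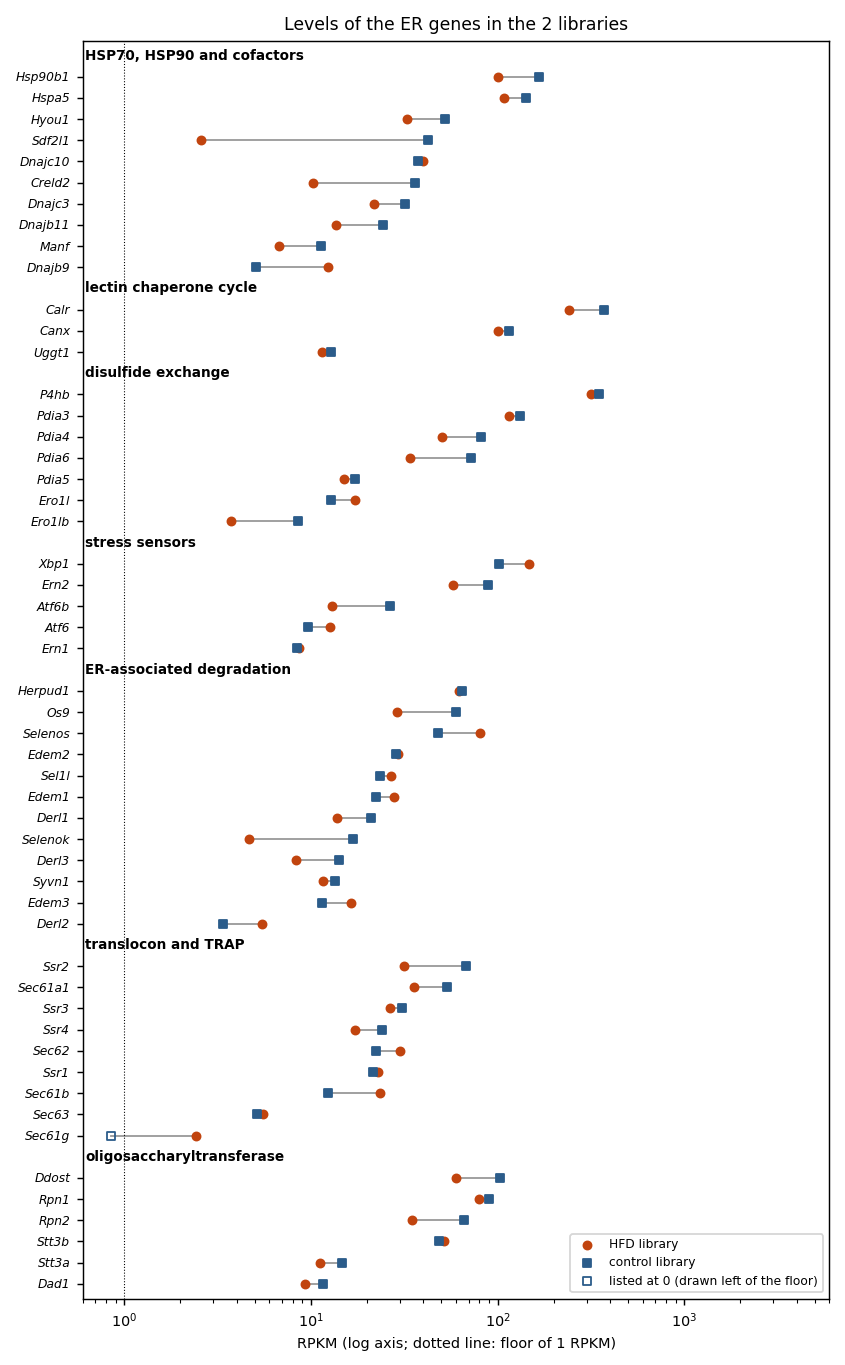
Level of each of the 52 ER genes in the HFD library (circles) and the control library (squares), in RPKM on a log axis, grouped by role; the open square marks Sec61g, listed at 0 in the control library. Calr, P4hb, Hsp90b1 and Hspa5 are among the genes above 100 RPKM in both libraries, and Sdf2l1 has the widest gap, from 42.2 RPKM in the control library to 2.58 in the HFD library.

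The letters of the stress response elements were looked for in the genes' promoters. RefSeq promoter windows of GRCm38.p6, from 250 bases before to 50 bases after each start site, were matched for 45 of the 52 genes; Atf6, Derl1, Ern2, Hyou1, Manf, Sec61a1 and Ssr2 had no window. The motifs, searched on both strands, were ERSE (CCAAT, any 9 bases, then CCACG), ERSE-II (ATTGG, any 1 base, then CCACG) and UPRE (TGACG followed directly by TGG); the last 5 letters of UPRE are the reverse complement of the last 5 of ERSE and ERSE-II, so matches could overlap there. ERSE was found in 10 of the 45 genes (22.2%) and in 29 of 17492 protein-coding genes with a window (0.166%). ERSE-II was found in Herpud1 and Dnajb11 (4.44%), against 0.0629% of protein-coding genes, and UPRE in none of the 45, against 0.823%. Over all 32851 windows the shares were 0.119% for ERSE, 0.0365% for ERSE-II and 0.676% for UPRE. The set was named in part for a response that acts through such elements, so its larger ERSE shares are no independent finding. The matches are printed because the genes that hold them are compared below with those that do not. Each is given 5′ to 3′ on the gene's strand with the fixed letters of the motif in capitals and 5 bases on either side.
Hspa5, chr2:34772020-34772048 (plus strand): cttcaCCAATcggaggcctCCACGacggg
Hsp90b1, chr10:86705633-86705661 (minus strand): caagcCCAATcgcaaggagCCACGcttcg
Hsp90b1, chr10:86705528-86705556 (minus strand): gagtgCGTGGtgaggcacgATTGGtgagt
Dnajc3, chr14:118937822-118937850 (plus strand): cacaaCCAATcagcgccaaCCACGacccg
Creld2, chr15:88819515-88819543 (plus strand): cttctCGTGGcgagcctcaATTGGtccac
Calr, chr8:84847070-84847098 (minus strand): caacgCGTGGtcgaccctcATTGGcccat
Canx, chr11:50325795-50325823 (minus strand): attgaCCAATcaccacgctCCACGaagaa
Pdia6, chr12:17266486-17266514 (plus strand): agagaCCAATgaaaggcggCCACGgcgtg
Ero1lb, chr13:12565677-12565705 (plus strand): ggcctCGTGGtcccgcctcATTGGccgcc
Derl3, chr10:75893237-75893265 (plus strand): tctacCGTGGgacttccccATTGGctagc
Syvn1, chr19:6046527-6046555 (plus strand): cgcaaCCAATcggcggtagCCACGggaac
Herpud1 (ERSE-II), chr8:94386372-94386392 (plus strand): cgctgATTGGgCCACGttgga
Dnajb11 (ERSE-II), chr16:22857847-22857867 (plus strand): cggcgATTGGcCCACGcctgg

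All 12 genes with an ERSE or ERSE-II match were lower with HFD, at a median log2 ratio of -0.68, and 3 of them (Creld2, Pdia6 and Ero1lb) were over 2-fold lower. Among the 32 genes whose window held neither, 16 were lower and 16 higher, with a median of -0.06. Of the genes without a window, which are in neither count, Hyou1, Manf, Derl1, Ern2, Sec61a1 and Ssr2 were lower and Atf6 higher. Matches also ran with role. Hspa5, Hsp90b1, Dnajb11, Dnajc3 and Creld2 belong to the HSP70 and HSP90 group, and no sensor, translocation or oligosaccharyltransferase gene had a match. The part of role and of missing windows in this difference was not tested. Scaled to the total of protein-coding genes, 9 of the 12 and 10 of the 32 were lower. With the 20 most abundant genes of either library left out of the scaling total, 12 of the 12 and 28 of the 32 were lower, at medians of -1.25 and -0.63. With a trend on GC content and length removed, 10 of the 12 and 17 of the 32 were lower, with medians of -0.62 and -0.05. Outside the 52 genes, ERSE or ERSE-II letters stood in the windows of 11 further protein-coding genes listed in both libraries, of which 3 were lower, with a median of 0.39. Their median was 0.68 with 1 lower under the protein-coding total, and -0.18 with 7 lower when the most abundant genes were left out. As deposited, the 3 lower genes were Nucb1, which encodes a calcium-binding protein of the secretory pathway, Rbm39 and Spats2l. The 3 over 2-fold higher were Lrif1, Rcl1 and Lgalsl. Nucb1, at a ratio of 0.651, also stands in the further ER lists described below. So do Alg12 (ERSE) and Krtcap2 (ERSE-II), of the glycan list, which were higher, at ratios of 1.75 and 1.12. The median control level of the 12 ER genes was 50.4 RPKM and that of the 32 was 23.8 RPKM. A match to these letters is a description of the window and not a measured binding site.

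The HSP70 and HSP90 system had the lowest median of the 7 role groups, -0.70 over 10 genes, with 8 of 10 lower in the HFD library. Hspa5 (BiP; ENSMUSG00000026864, chromosome 2, 34771970 to 34777547, mm10), the HSP70 of the ER, which also holds the sensors inactive, stood at 108 RPKM with HFD and 143 in the control. Its ratio was 0.760 (interval 0.737 to 0.784). Hsp90b1 (GRP94), the HSP90 of the ER, stood at 100.1 and 168 RPKM, a ratio of 0.597 (0.579 to 0.616); it overlaps the listed genes Gm15344 and 1810014B01Rik. Both were among the most abundant transcripts, with at least 97.5% of protein-coding genes at a lower level in each library. Hyou1 (GRP170), which exchanges the nucleotide of BiP, stood at 32.9 and 52.1 RPKM.

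The J-domain proteins, which hand substrates to BiP and start its ATPase, went both ways. Dnajb11 (ERdj3) stood at 13.7 RPKM with HFD and 24.4 in the control. Dnajc3 (P58IPK), which is also known as an inhibitor of PERK, stood at 21.9 and 31.9 RPKM. Dnajc10 (ERdj5), a J-domain protein that reduces disulfides, was close to equal at 39.9 and 37.5 RPKM. Dnajb9 (ERdj4; chromosome 12, 44205559 to 44210326), which recruits BiP to the IRE1 sensor and to degradation substrates, was the single gene over 2-fold higher, at 12.4 against 5.07 RPKM, a ratio of 2.44 (2.02 to 2.97). Its ratio was 1.64 with the 20 most abundant genes left out of the scaling total.

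The remaining genes of the group encode soluble proteins of the ER without a J domain. Sdf2l1 (ENSMUSG00000022769, chromosome 16, 17130138 to 17132383), which forms a complex with ERdj3 and keeps substrates from aggregating, stood at 2.58 RPKM with HFD and 42.2 in the control. It was 16.3 times lower (12.7 to 21.2), on about 73 and 460 estimated reads. Only 0.07% of protein-coding genes had a lower ratio, and Hspa5 stood at 42.0 times the RPKM of Sdf2l1 within the HFD library but 3.38 times within the control library. Creld2 (chromosome 15, 88819646 to 88826683), a secreted protein with thioredoxin-like activity, stood at 10.3 and 36.2 RPKM, 3.52 times lower (3.06 to 4.04). Manf, a neurotrophic factor that binds BiP, stood at 6.73 and 11.4 RPKM, a ratio of 0.592; its gene overlaps Dcaf1 and Rbm15b, which were listed in both libraries, and without strand information reads of overlapping genes cannot be told apart.

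The promoter windows of the member with the highest and the member with the lowest ratio are shown whole beside that of Hspa5, because both lack the ERSE and ERSE-II letters. No match says only that these letters are not in the window. Capitals mark the ERSE letters of Hspa5.
Hspa5, chr2:34771840-34772139 (plus strand): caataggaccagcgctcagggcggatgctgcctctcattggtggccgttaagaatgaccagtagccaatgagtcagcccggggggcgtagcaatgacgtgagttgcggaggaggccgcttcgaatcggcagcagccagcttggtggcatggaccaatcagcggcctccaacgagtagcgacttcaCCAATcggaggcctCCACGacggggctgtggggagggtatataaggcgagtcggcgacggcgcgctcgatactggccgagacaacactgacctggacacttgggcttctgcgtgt
Sdf2l1, chr16:17132334-17132633 (minus strand): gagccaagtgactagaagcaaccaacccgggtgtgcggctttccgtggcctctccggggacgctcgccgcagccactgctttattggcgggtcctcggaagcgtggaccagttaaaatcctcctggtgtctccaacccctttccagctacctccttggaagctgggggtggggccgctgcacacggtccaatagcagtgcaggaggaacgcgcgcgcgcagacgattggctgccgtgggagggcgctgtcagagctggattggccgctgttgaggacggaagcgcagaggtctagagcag
Dnajb9, chr12:44210019-44210318 (minus strand): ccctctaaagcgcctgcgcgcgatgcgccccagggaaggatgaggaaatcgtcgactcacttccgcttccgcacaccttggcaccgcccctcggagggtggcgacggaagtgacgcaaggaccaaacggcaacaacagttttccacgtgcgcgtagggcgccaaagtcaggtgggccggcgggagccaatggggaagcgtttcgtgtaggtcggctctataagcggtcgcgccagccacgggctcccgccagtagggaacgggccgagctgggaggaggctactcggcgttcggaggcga

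The lectin chaperones bind glycoproteins that carry a trimmed sugar chain. All 3 genes of this cycle were lower with HFD, at a median log2 ratio of -0.20. Calr, the soluble lectin calreticulin, stood at 243 RPKM with HFD and 373 in the control, a ratio of 0.650 (0.634 to 0.666). An annotated pseudogene copy, Calr-ps, stood at 147 and 126 RPKM, so reads of the copies may be mixed and the value of Calr is uncertain. Canx, the membrane-bound lectin calnexin, stood at 100.3 and 115 RPKM, a ratio of 0.871. Uggt1, the glucosyltransferase that returns unfolded glycoproteins to the cycle, had 11.5 and 12.8 RPKM, a ratio of 0.896. The soluble lectin was thus 3.24 times as high as the membrane-bound lectin in the control library and 2.42 times in the HFD library.

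Among the enzymes of disulfide exchange, 6 of 7 genes were lower, with a median of -0.19. P4hb, the protein disulfide isomerase itself, was abundant and nearly level, at 318 RPKM with HFD and 352 in the control, a ratio of 0.905 (0.884 to 0.927). Pdia3 (ERp57), the partner of the lectin chaperones, stood at 116 and 131 RPKM, a ratio of 0.883. Pdia4 (ERp72), an isomerase found in chaperone complexes with BiP, stood at 50.5 and 81.1 RPKM. Pdia6 (P5; chromosome 12, 17266545 to 17284770), which associates with BiP and attenuates IRE1, stood at 33.8 and 71.9 RPKM, 2.13 times lower (2.02 to 2.24). Pdia5, a less abundant isomerase, had 15.1 and 17.3 RPKM. The ratios of P4hb and Pdia3 were thus nearest to 1, and those of Pdia4 and Pdia6 lower.

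The oxidases that feed disulfides to the isomerases differed in direction as deposited. Under the protein-coding total they still did, with Ero1l at 1.63 and Ero1lb at 0.532. With the 20 most abundant genes left out of the scaling total both were lower, at 0.895 and 0.292. Ero1l, the widely expressed oxidase, stood at 17.2 RPKM with HFD and 12.9 in the control, a ratio of 1.33 (1.22 to 1.45). Ero1lb, the form known from the pancreas and other secretory tissue, stood at 3.71 and 8.56 RPKM, 2.30 times lower (2.05 to 2.59). Ero1l was thus 1.51 times as high as Ero1lb in the control library and 4.62 times in the HFD library.

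The stress sensors and their effector had a median of 0.05 as deposited, with 3 of 5 genes higher. These 3, Xbp1, Atf6 and Ern1, had ratios of 1.77, 1.61 and 1.26 under the protein-coding total. With the 20 most abundant genes left out of the scaling total they were lower, at 0.970, 0.883 and 0.694. Xbp1, whose mRNA is spliced by IRE1 to make an active transcription factor, stood at 147 RPKM with HFD and 102 in the control, a ratio of 1.44 (1.387 to 1.4997). The values do not separate the spliced from the unspliced form. Ern1 (IRE1 alpha), the ubiquitous sensor, had 8.66 and 8.39 RPKM, a ratio of 1.03 whose interval, 0.945 to 1.13, holds equality. Ern2 (IRE1 beta), the form of mucosal epithelia, stood at 58.1 and 88.6 RPKM, a ratio of 0.656 (0.624 to 0.689), and so above Ern1 in both libraries. Atf6, the sensor cut by Golgi proteases to release a transcription factor, had 12.7 and 9.66 RPKM, a ratio of 1.31. Atf6b, its paralog, had 12.9 and 26.6 RPKM, 2.06 times lower (1.87 to 2.28). The level of Atf6b was thus 2.76 times that of Atf6 in the control library and 1.02 times in the HFD library.

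**Figure D2:**
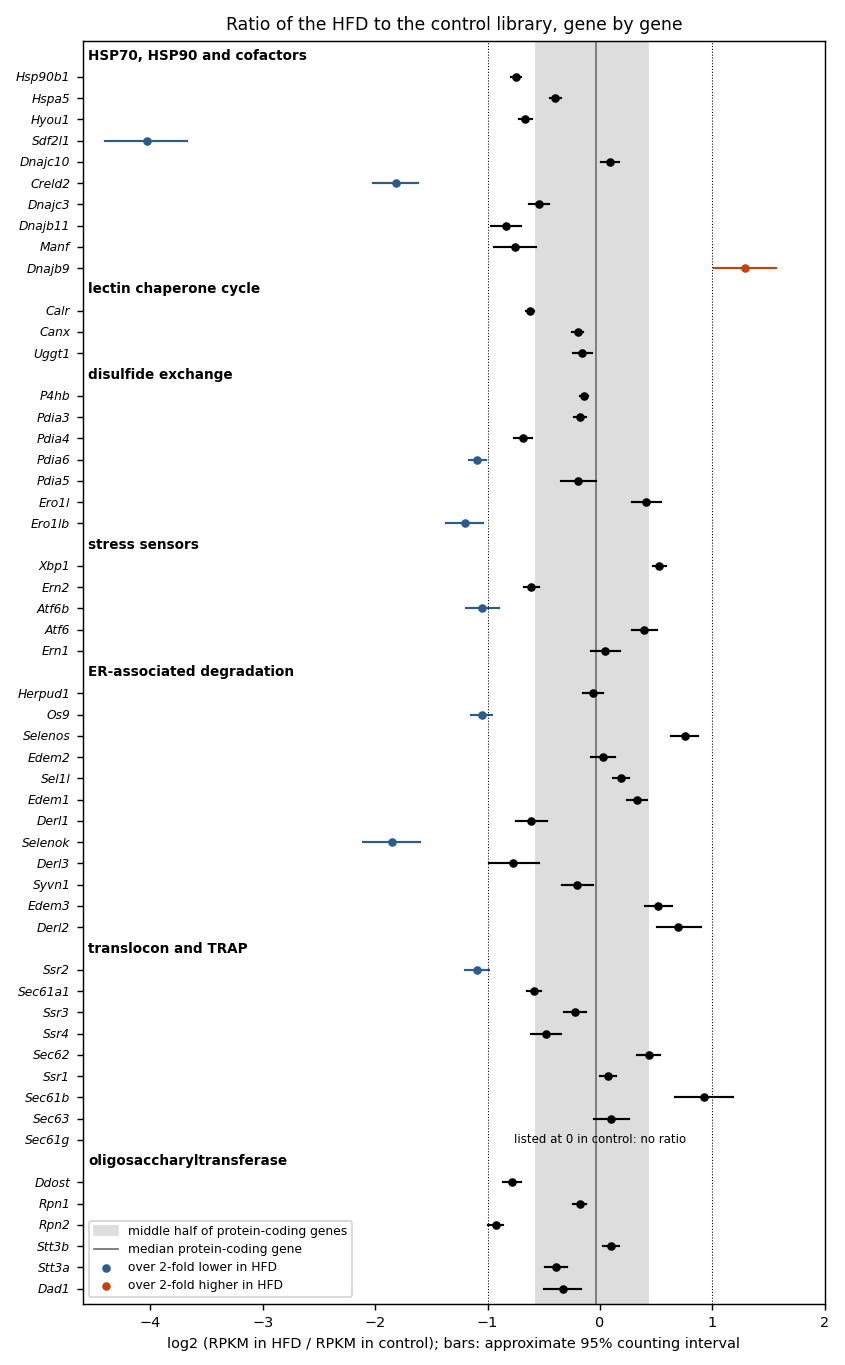
log2 ratio of HFD to control RPKM for the 51 ER genes listed in both libraries, with approximate 95% counting intervals as bars; the grey band spans the quartiles of protein-coding genes (-0.57 to 0.43) and dotted lines mark 2-fold. Sdf2l1 lies far to the left at -4.03, and Dnajb9 at 1.29 is the only gene beyond 2-fold on the right.

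Genes of ER-associated degradation were evenly divided, 6 higher and 6 lower, with a median of -0.02. The core of the ligase complex was near level. Sel1l, the adaptor of the ligase, had 26.7 RPKM with HFD and 23.5 in the control, a ratio of 1.14. Syvn1 (HRD1), the ligase, had 11.6 and 13.4 RPKM, a ratio of 0.870. Herpud1, the stress-induced scaffold of the complex, had 61.8 and 64.5 RPKM, a ratio of 0.959 (0.902 to 1.02), and overlaps the listed antisense gene Gm15890.

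The mannose-trimming proteins that mark glycoproteins for degradation were level or higher as deposited. Edem1 stood at 28.0 and 22.3 RPKM, Edem2 at 29.1 and 28.6, and Edem3 at 16.5 and 11.5 in the HFD and control libraries. Their ratios in this order were 1.54, 1.25 and 1.75 under the protein-coding total. With the 20 most abundant genes left out of the scaling total they were 0.845, 0.684 and 0.963. Os9, a lectin that delivers the trimmed substrates, was lower at 28.9 and 60.0 RPKM, 2.07 times (1.94 to 2.22).

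The derlins, membrane proteins of the export channel, went different ways. Derl1 stood at 13.8 RPKM with HFD and 21.1 in the control. Derl2 stood at 5.49 and 3.39 RPKM, a ratio of 1.62 (1.42 to 1.86), and overlaps Mis12, listed at 5.24 and 5.06 RPKM. Derl3, the member known from secretory cells, stood at 8.32 and 14.2 RPKM, a ratio of 0.586 (0.503 to 0.685).

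The selenoproteins that tie the complex to the cytosolic ATPase p97 gave the highest and the lowest ratio of the degradation group. Selenos stood at 80.5 RPKM with HFD and 47.7 in the control, a ratio of 1.69 (1.55 to 1.83). Selenok (chromosome 14, 29968308 to 29975662) stood at 4.68 and 16.8 RPKM, 3.60 times lower (3.03 to 4.30). It has several annotated pseudogene copies, of which Selenok-ps1 was listed at 1.94 RPKM in the control library and at 0 in the HFD library, so its own value is uncertain.

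The translocation genes were divided as well, 4 higher and 4 lower, with a median of -0.07. Sec61a1, the pore of the channel, had 35.5 RPKM with HFD and 53.4 in the control, a ratio of 0.665 (0.638 to 0.693). Sec61b, a small subunit, had 23.3 and 12.3 RPKM, a ratio of 1.90 (1.59 to 2.27). Sec61g, the other small subunit, had 2.42 RPKM with HFD and was listed at 0 in the control. The pore was therefore lower with HFD, while Sec61b was higher and Sec61g was listed with HFD alone. Sec62 and Sec63, the partners of the channel in post-translational import, had 29.99 against 22.2 and 5.51 against 5.14 RPKM.

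The TRAP complex, which sits beside the channel and helps some signal sequences to open it, was uneven. Ssr1 (TRAP alpha) had 22.8 RPKM with HFD and 21.6 in the control. Ssr2 (TRAP beta) had 31.7 and 67.8 RPKM, 2.13 times lower (1.98 to 2.30), and overlaps a listed pseudogene, Gm10704. Ssr3 (TRAP gamma) stood at 26.5 and 30.96 RPKM, and Ssr4 (TRAP delta) at 17.3 and 24.1. Over the 4 subunits the levels spanned 17.3 to 31.7 RPKM with HFD and 21.6 to 67.8 in the control.

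Of the oligosaccharyltransferase, which moves the sugar chain onto the nascent protein, 5 of 6 genes were lower with HFD, at a median of -0.36 and none beyond 2-fold. Rpn1, a subunit that presents substrates to the catalytic site, stood at 79.2 and 89.9 RPKM, a ratio of 0.882. Rpn2 stood at 35.0 and 66.5 RPKM, a ratio of 0.526 (0.501 to 0.551). Ddost, the conserved subunit OST48, stood at 60.2 and 104 RPKM, a ratio of 0.581. Rpn2 and Ddost were thus the lowest of the complex.

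The remaining subunits lay nearer to equality. Dad1, a small subunit first known as a defender against cell death, had 9.25 RPKM with HFD and 11.6 in the control. Stt3a, the catalytic subunit that works during translocation, had 11.2 and 14.7 RPKM, a ratio of 0.761. Stt3b, the catalytic subunit that acts after it, was the single higher member, at 51.8 and 48.4 RPKM, a ratio of 1.07 (1.02 to 1.13).

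**Figure D3:**
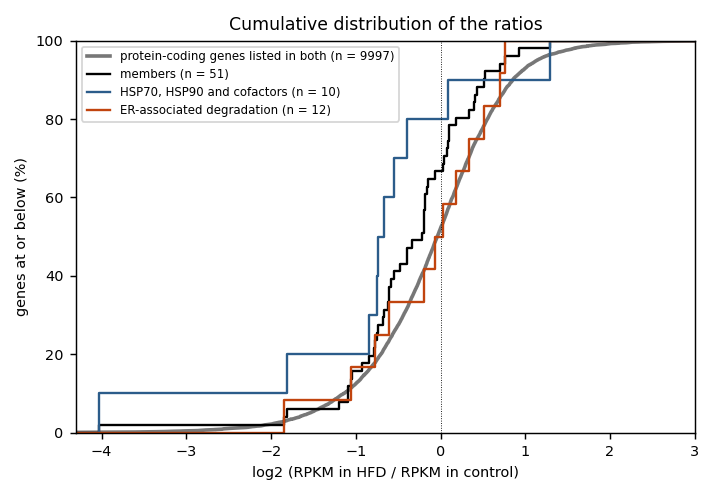
Cumulative share of genes (y axis, percent) at or below each log2 ratio (x axis) for protein-coding genes listed in both libraries, the 51 ER genes, the 10 HSP70 and HSP90 genes and the 12 degradation genes. The HSP70 and HSP90 curve lies left of the protein-coding curve over most of its length (median -0.70), and the degradation curve follows it (median -0.02).

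Further genes of the same pathways came from 7 lists with 138 different genes, of which 122 were listed in both libraries. Their median log2 ratio was -0.11, beside the protein-coding median of -0.04, and 68 of the 122 were lower, beside 52.2% of protein-coding genes. Over 2-fold lower were 12 of the 122 and over 2-fold higher 5, both smaller shares than the 12.5% and 7.00% of protein-coding genes. Other ER chaperones and prolyl isomerases had a median of -0.22, with 12 of 18 lower. Ppib, the abundant cyclophilin of the ER, had a ratio of 0.829 (155 against 187 RPKM). Serpinh1 (HSP47), the collagen chaperone, stood at 1.76 against 31.8 RPKM, 18.1 times lower (14.8 to 22.4), and was the lowest of all further genes. Cnpy2 had 87.4 and 60.4 RPKM, and Rcn2, a calcium-binding protein gene, had the highest ratio of that list, 1.66.

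Other disulfide isomerases had a median of 0.07, with 6 of 13 lower. Agr2, the isomerase needed for mucin folding, stood at 194 against 226 RPKM, and Txndc5 at 57.4 against 60.7. Pdia2, known from the pancreas, was 3.20 times lower (19.3 against 61.9 RPKM), and Tmx3, a membrane-bound isomerase, was 3.92 times as high (11.3 against 2.87 RPKM). The other degradation genes had a median of -0.05, with 12 of 21 lower. Vcp, which encodes p97, the ATPase that pulls substrates out of the membrane, stood at 135 against 30.4 RPKM, a ratio of 4.44 (4.21 to 4.69). Rnf5, a membrane-bound ligase, was 3.98 times lower at 4.91 against 19.5 RPKM, and Aup1 had a ratio of 1.13.

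Genes of targeting and signal peptide removal had a median of -0.12, with 13 of 22 lower and 4 more listed in the control library only. Tram1, a membrane protein beside the channel, was level at 58.1 and 56.8 RPKM, and Asna1, the targeting ATPase of tail-anchored proteins, had 36.9 and 40.8. Emc10, of a complex that inserts membrane proteins, was 4.76 times lower (5.03 against 23.9 RPKM), and the signal peptidase gene Spcs1 had a ratio of 1.80. Glycan assembly and trimming genes had a median of 0.01, with 11 of 25 lower; the cargo lectin gene Lman2 had a ratio of 1.01, Prkcsh, the beta subunit of glucosidase II, one of 0.529, Alg11 one of 2.31 and Alg8 one of 0.335. These lists lay on both sides of the protein-coding median.

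In the PERK arm, which slows translation and raises ATF4, the median was -0.26, with 6 of 11 lower. Atf4 itself, a transcription factor regulated mainly in translation, stood at 134 RPKM with HFD and 92.1 in the control, a ratio of 1.46 (1.39 to 1.53). Nfe2l2, a PERK substrate and antioxidant factor, had 121 and 106 RPKM. Ddit3 (CHOP), the death-promoting factor of prolonged stress, stood at 1.81 and 5.95 RPKM, 3.29 times lower (2.42 to 4.46). Chac1, a glutathione-degrading enzyme downstream of ATF4, had 7.45 and 1.06 RPKM, the highest ratio of the list at 7.06 (4.34 to 12.3), although on only about 17 estimated reads in the control library. Chac1 and Ddit3, both known as targets of this arm, thus stood on opposite sides. The other lower genes were Ppp1r15a (ratio 0.323), Ddit4 (0.510), Atf3 (0.743), Sesn2 (0.832) and Eif2ak3 (0.836). The intervals of Atf3 and Sesn2 hold equality. The other higher genes were Ppp1r15b (1.33) and Eif2s1 (1.21). Bbc3 was listed in the control library only, and Trib3 in neither. The ATF6 and CREB3-type factors and proteases had a median of -0.33, with 8 of 12 lower. Tmbim6 had 245 and 289 RPKM, Creb3l1 37.9 and 51.5, Creb3l2 16.7 and 9.82 (ratio 1.70), and Hm13, a signal peptide peptidase, a ratio of 0.532.

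Levels of markers of other secretory and stromal cells also differed between the libraries. Parietal markers were present in both, Atp4a at 4997 and 4324 RPKM and Atp4b at 5639 and 4375, with 11 of 14 higher in the HFD library. Their ratios ran from 0.802 (Gif, which also stands in the chief cell list) to 2.96 (Aqp4). The parietal list summed to 13635 RPKM with HFD and 10908 in the control. Chief cell markers were lower in 4 of 5 genes listed in both, and 1 more was listed in the HFD library only. Pgc stood at 45624 and 102292 RPKM and Chia1 at 2532 and 3959, with ratios from 0.253 (Pga5) to 1.22 (Bhlha15). The chief cell list made up 16.8% of the summed RPKM of protein-coding genes with HFD and 30.1% in the control.

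Pancreatic acinar markers were lower in 6 of 7 genes, with 9 more listed in the control library only, and summed to 1955 RPKM with HFD and 13987 in the control. Clps stood at 1790 and 12989 RPKM and Cela1 at 83.6 and 92.9, with ratios from 0.0761 (Cel) to 1.06 (Rnase1), and the enzyme genes Ctrb1, Cela2a and Pnlip were listed at 0 in the HFD library. Endocrine markers were lower in 6 of 7 genes, with 4 more listed in the control library only and 1 in the HFD library only. Ghrl stood at 707 and 5914 RPKM and Chga at 233 and 1204, with ratios from 0.0886 (Chgb) to 1.16 (Gast). Fibroblast markers were lower in 7 of 7 genes, with 2 more listed in the control library only and 1 in the HFD library only. The list summed to 59.2 against 173 RPKM. Ratios ran from 0.142 (Col6a2) to 0.475 (Col3a1), with Col1a1 at 7.96 and 28.9 RPKM. These 3 lists had the lowest median ratios of the marker lists.

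Neck cell markers were lower in 4 of 4 genes, Tff2 at 7355 and 8350 RPKM and Muc6 at 139 and 151. Pit cell markers were lower in 2 of 7 genes and summed to 36973 against 15015 RPKM, with Gkn1 at 21736 and 5020 RPKM, Gkn2 at 8091 and 3406, and Gkn3, which also stands in the neck cell list, at a ratio of 0.346. Of 12 plasma cell markers 10 were listed at 0 in both libraries, Jchain, Mzb1 and Igkc among them, with Sdc1 at 79.9 and 70.4 RPKM and Igha at 15.7 and 1.28. Depth differed 2.59-fold as well. The part of these cell types and of depth in the ER gene ratios was not tested.

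**Figure D4:**
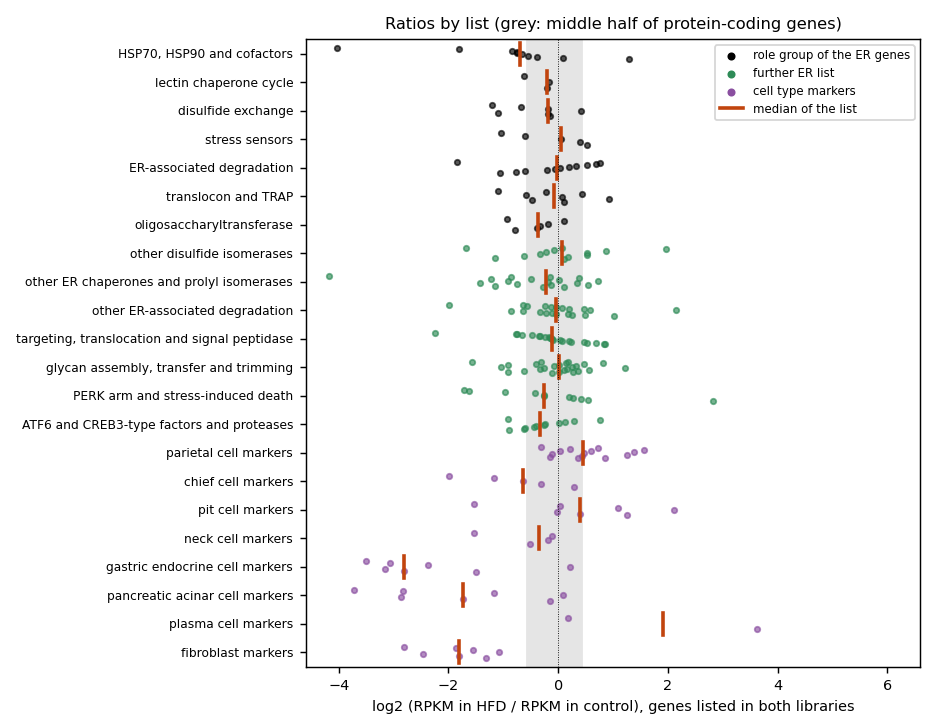
log2 ratios of HFD to control RPKM (x axis) for single genes listed in both libraries, by role group of the ER genes, further ER list and cell type marker list (y axis), with list medians as red bars and the quartile range of protein-coding genes in grey. The ER lists have medians between -0.70 and 0.07, and the endocrine, fibroblast and pancreatic acinar markers lie lower, at -2.81, -1.80 and -1.73.

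GC content also moved with the ratios. Across the 51 ER genes the Pearson correlation of the log2 ratio with the GC content of the longest transcript was -0.394, and across the 9997 protein-coding genes it was -0.263; these points are genes of the same 2 libraries and not replicates. Among ER genes at 55% GC or more, 8 of 9 were lower, with a median of -0.78, where protein-coding genes of that band had a median of -0.31. Below 45% GC, 6 of 14 were lower, with a median of 0.08 beside 0.25. With the protein-coding trend on GC content and length removed, 5 of the 8 genes stayed over 2-fold lower (Sdf2l1, Creld2, Pdia6, Ero1lb and Selenok), while Atf6b, Os9 and Ssr2 had ratios of 0.651, 0.603 and 0.584. Sec61b then passed 2-fold at 2.44.

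**Figure D5:**
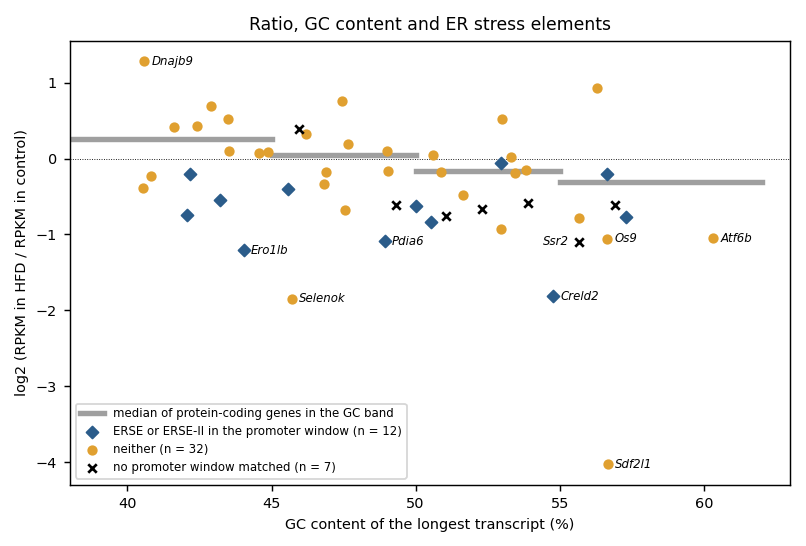
log2 ratio of HFD to control RPKM (y axis) against GC content of the longest transcript in percent (x axis) for the 51 ER genes, with genes beyond 2-fold named; diamonds have ERSE or ERSE-II letters in the promoter window, circles have neither, crosses had no window, and grey bars are medians of protein-coding genes per GC band. All 12 diamonds lie below 0, over a GC range of 42.1% to 57.3%, and Sdf2l1 and Selenok are circles far below the grey bars.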

How the data were processed

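Per the labels' protocols, total RNA of sorted cells was depleted of ribosomal RNA and made into Ion Total RNA-Seq libraries. Per the submitters' processing notes, bedtools 2.25.0 was used, with build mm10; aligner, counting rule, strand use and annotation are not stated there or in the labels. The deposited column, headed RPKM per the file headers, holds log2 values that were read as log2 RPKM floored at 1 RPKM: the back-transformed value multiplied by exon length was a whole number of steps in 49.7% and 35.6% of low single-exon values (within 0.005 of a step, at 12 steps or fewer). Those steps gave the depths and estimated reads. Lengths, symbols and positions came from GENCODE M21 (36308 of 38087 identifiers matched), so intervals (exact conditional binomial, 95%) are approximate. RPKM is relative to each library's total, so abundant transcripts lower the others, and the floor hides genes at or below 1 RPKM.

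Ratios were computed in Python 3.11.15 (pandas 2.3.3, scipy 1.17.1) from values as deposited. The steps were also run on simulated data. These were drawn with the same exon lengths used to recover the depth, so they could not check those lengths or the counting rule. With 1 library per diet no test was possible. Members and lists were chosen with earlier results of these data known. Every member is named; of each other list, those named are the 2 most abundant on average, plus the extremes of ratio among genes with 50 or more estimated reads in each library. Chac1, the remaining genes of the PERK list, the marker genes listed at 0 and the non-member genes with promoter matches were chosen after their values were seen. Alternatives were pseudocounts of 1 and 0.1 RPKM, a minimum of 5 RPKM, 3 scalings and other call rules, and, added after the data were seen, removal of a trend on GC content and length, and of members with a listed overlapping gene or pseudogene copy.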

Additional observations from a re-analysis of the deposited data

How the results depend on the processing

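No paired analysis was possible because each diet had 1 library, and for the same reason no library could be left out. Scaled to the total of protein-coding genes, the median log2 ratio was 0.069 for all members, 0.28 for degradation, -0.41 for the HSP70 and HSP90 genes, 0.10 for disulfide exchange, 0.095 for the lectin cycle, -0.069 for the oligosaccharyltransferase, 0.34 for the sensors and 0.22 for translocation, with 3 genes over 2-fold higher and 3 lower. With the 20 most abundant genes of either library left out of the scaling total, the medians in the same order were -0.80, -0.59, -1.28, -0.76, -0.77, -0.93, -0.53 and -0.65, with 0 genes over 2-fold higher and 22 lower. Scaled to the median coding gene, only the sign for degradation changed, to 0.021. With the trend on GC content and length removed, the medians were -0.32 for all members, 0.14 for degradation, -0.40 for the lectin cycle and -0.22 for translocation, with 2 genes over 2-fold higher and 5 lower. Without members with a listed overlapping gene or pseudogene copy, they were 0.11 for degradation, -0.60 for the HSP70 and HSP90 genes and -0.22 for translocation. Pseudocounts of 0.1 and 1 RPKM, which bring in Sec61g, gave 0.075 and 0.072 for translocation and 2 genes over 2-fold higher each. At 5 RPKM or more in both libraries, 5 genes were over 2-fold lower, as were 5 by their whole counting interval; past 1.5-fold, 4 were higher and 20 lower. Sdf2l1, Creld2 and Selenok were over 2-fold lower under all 3 scalings. Apart from changes that the alternative makes by its construction, the cause was not tested. The median counting interval reached 0.10 on the log2 scale to either side of a ratio; variation between mice is not known from 1 library per diet.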

Other observations

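Some of the ER genes overlap or copy other annotated genes that were listed themselves. Gm15890, antisense to Herpud1, stood at 11.2 RPKM with HFD and 1.60 in the control, while Herpud1 had a ratio of 0.959. The pseudogene 1810014B01Rik, on the strand opposite to Hsp90b1, stood at 19.5 and 46.4 RPKM, and Gm15344, on the same strand as Hsp90b1, at 14.2 and 29.3 RPKM. Both were lower in the HFD library, as Hsp90b1 was. Without a stated use of strand in the counting, reads of these genes and of their partners cannot be told apart. Gm10704, a pseudogene opposite to Ssr2, stood at 16.8 and 20.3 RPKM.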
